A study of Mus musculus with 12 samples.

Results

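Gluconeogenesis makes glucose from lactate, amino acids and glycerol, and the liver is its main site during a fast. Pcx (pyruvate carboxylase) and Pck1 (cytosolic phosphoenolpyruvate carboxykinase) carry out its entry steps, Fbp1 (fructose-1,6-bisphosphatase) the step that opposes phosphofructokinase, and G6pc (the catalytic subunit of glucose-6-phosphatase) its last step inside the endoplasmic reticulum. Fasting hormones acting through cAMP and glucocorticoids are known to raise Pck1 and G6pc transcription, and insulin is known to lower it.

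The transcripts described here are those of 9 genes. The core enzymes are Pck1, G6pc, Fbp1 and Pcx. Glucose export is represented by Slc37a4, which carries glucose 6-phosphate into the endoplasmic reticulum, and by Slc2a2, the GLUT2 glucose carrier of the hepatocyte surface. Substrate entry is represented by Gpd1, Got1 and Gpt, the cytosolic glycerol-3-phosphate dehydrogenase, aspartate aminotransferase and alanine aminotransferase. The genes were chosen by name, and every probe set that the array's annotation gives to 1 of their gene numbers was taken. These were 15 of 45037 probe sets, from 9 of 18023 named genes. Pck1 has 3 of them, Gpd1 has 4, Gpt has 2, and each other gene has 1.

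The study measured total liver RNA from 12 male mice of the 129SV strain, 6 wild type and 6 lacking Sirt4, a mitochondrial sirtuin. Every animal was 7 to 8 months old, came from wild-type and knockout littermates, was fasted for 16 h and received no treatment, so no fed group is part of the comparison. Each animal was measured on 1 Affymetrix Mouse Genome 430 2.0 array. No source used here says how the Sirt4 allele was made. The animals are called wild type 1 to 6 and knockout 1 to 6, and these numbers pair no animals.

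Array medians lay between 36.6 and 38.69 intensity units, and the log2 intensities of any 2 arrays correlated at 0.988 to 0.994. The Sirt4 probe set read 172 ± 14.5 (SD, n = 6) in the wild type and 104 ± 16.4 (SD, n = 6) in the knockout, with no overlap between the groups. Its log2 fold change was -0.53 (SE 0.07), with an adjusted p of 0.0534 in limma over all 45037 probe sets, outside the threshold of 0.05. That adjusted p ranged from 0.0184 without the 3 knockout arrays whose titles end in -2 to 0.967 among the animals with titles in the 7200s, with log2 fold changes from -0.41 to -0.73 over all alternatives. No source used here says whether this probe set reads the deleted stretch. Hepatocyte markers, such as Alb and Ttr, summed to 129711 to 138198 in the wild type and 130134 to 134596 in the knockout, and none of the 10 was at 0. All values are from whole liver, in which fewer cells of a type and less RNA per cell cannot be told apart.

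Promoter sequences of 300 bases, the first 250 of them before the annotated start, are shown for Pck1 and G6pc, whose transcription is the known point of hormonal control, and for Slc37a4, whose product works in 1 system with the G6pc enzyme. They are from RefSeq, build GRCm38.p6, on the plus strand: chr2:173152823-173153122 for Pck1, chr11:101367466-101367765 for G6pc and chr9:44396696-44396995 for Slc37a4. Capitals mark the letters ACGTCA, a part of the cAMP response element, and TGTTT, the core read by forkhead factors such as FOXO1. Each was searched on both strands, and shorter or variant forms of the response element were not searched.
Pck1: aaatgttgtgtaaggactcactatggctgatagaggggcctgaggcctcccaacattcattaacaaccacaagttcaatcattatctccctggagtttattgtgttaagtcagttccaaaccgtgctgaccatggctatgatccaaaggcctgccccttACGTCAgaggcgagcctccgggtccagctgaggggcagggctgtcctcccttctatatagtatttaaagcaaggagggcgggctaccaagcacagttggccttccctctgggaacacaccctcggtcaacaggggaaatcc
G6pc: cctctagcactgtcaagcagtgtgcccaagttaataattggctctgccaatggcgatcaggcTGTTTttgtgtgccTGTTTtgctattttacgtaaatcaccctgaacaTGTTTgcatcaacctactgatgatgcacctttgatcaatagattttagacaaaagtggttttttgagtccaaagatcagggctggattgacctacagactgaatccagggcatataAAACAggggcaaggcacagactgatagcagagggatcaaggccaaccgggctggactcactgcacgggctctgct
Slc37a4: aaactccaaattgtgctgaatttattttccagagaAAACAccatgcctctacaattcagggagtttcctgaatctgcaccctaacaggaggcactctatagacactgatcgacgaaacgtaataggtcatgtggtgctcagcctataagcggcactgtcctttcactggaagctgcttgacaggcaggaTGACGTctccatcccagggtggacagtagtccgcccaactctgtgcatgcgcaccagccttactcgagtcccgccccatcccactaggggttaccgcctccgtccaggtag
The Pck1 stretch held ACGTCA once, on the plus strand with its first base 91 bases before the start, and no TGTTT. The G6pc stretch held TGTTT at 4 places and no ACGTCA. The Slc37a4 stretch, from the nearest to the gene's start of 3 in the table, held 1 of each on the minus strand. The motif matches shared 0 bases. Of 32851 mouse promoters in the same table, 7.51% held ACGTCA and 50.5% held TGTTT. The matches describe these letters and say nothing of occupancy in these livers. The table held promoters for 7 of the 9 genes.

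For none of the 9 genes did the transcript level differ between the genotypes beyond the spread between animals. None of the 15 probe sets passed an adjusted p of 0.05 in limma, with adjusted p-values of 0.882 to 0.998, where 0 of 45037 probe sets in all passed it, a share of 0%. At an unadjusted limma p under 0.05 there were also 0 of the 15, where 2651 probe sets, 5.89% of all, fell under it. The log2 fold change, knockout minus wild type on log2(intensity + 50), was above 0 for 7 of the 15 and below 0 for 8, with a median of -0.0052; over all probe sets 50.2% were above 0 and the median was 0.00027. The groups overlapped for all 15, where 0.229% of all probe sets had groups that did not overlap. For 13 probe sets the intensity was above the array's median on all 12 arrays, and for 2 (Pck1 1455209_at and Gpd1 1456732_at) it was below it on all 12.

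Among the core enzymes, Pck1 had the smallest ratio of the highest to the lowest animal of the 9 genes. Its brightest probe set, 1423439_at, read 8581 at the lowest, 8841 at the median and 9760 at the highest in the wild type. In the knockout it read 8453, 8778 and 9179. The highest of the 12 animals, wild type 3, read 1.15 times the lowest, knockout 4, and the groups overlapped over most of their range. The means were 8998 ± 479 (SD, n = 6) and 8799 ± 316 (SD, n = 6). The knockout minus wild-type log2 difference was -0.031 (SE 0.048; limma adjusted p = 0.968, exact permutation p = 0.424, two-sided), with a 95% interval of the knockout level from 91.2% to 105% of wild type. The difference was -0.0075 without wild type 3, -0.019 without wild type 6, -0.02 without knockout 4 and -0.0013 with the title series (number ranges in the array titles) as a term.

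The second bright Pck1 probe set, 1439617_s_at, followed the first across the 12 animals with a Pearson r of 0.934, and its log2 fold change was -0.043 (SE 0.078). The dim probe set, 1455209_at, read 8.5 to 10.98 in the wild type and 4.08 to 9.02 in the knockout, with a Pearson r with the brightest of 0.082. Its exact permutation p was 0.0108, unadjusted and the lowest of the 15, while limma gave an unadjusted p of 0.102. The smallest exact p that 924 arrangements of 6 against 6 animals can give is 0.00216.

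G6pc varied far more from animal to animal than Pck1 did, above all in the wild type. It read 1673 at the lowest, 2174 at the median and 3127 at the highest in the wild type, and 2053, 2334 and 2756 in the knockout. Wild type 5 was lowest and wild type 1 highest of all 12, so that every knockout value fell between wild-type values. The means were 2236 ± 510 (SD, n = 6) and 2368 ± 234 (SD, n = 6). The difference in log2 level came to 0.10 (SE 0.12, limma adjusted p = 0.95, exact permutation p = 0.47, two-sided), and the 95% interval ran from 90.8% to 127% of the wild-type level. Animals with titles in the 7200s included 2 wild-type and 5 knockout mice, those in the 7500s 4 wild-type and 1 knockout mouse. With the title series as a term the G6pc log2 fold change turned to -0.032, and among the 7200s alone it was -0.15. It was 0.028 without wild type 5, 0.057 without wild type 3, 0.06 without knockout 5 and 0.20 without wild type 1.

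Fbp1 differed between the genotypes by less than its spread between animals. It read 12816 to 15035 in the wild type, with a median of 13252, and 12666 to 13617 in the knockout, with a median of 13385. Wild type 6 stood above the other 11 animals, which spanned 12666 to 13661. Knockout minus wild type, the log2 difference was -0.018 (SE 0.049, limma adjusted p = 0.986), and without wild type 6 it was 0.014.

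Pcx read 2530 to 3160 in the wild type, with a median of 2882, and 2840 to 3151 in the knockout, with a median of 2967. Here wild type 1 was the lowest animal and wild type 5 the highest. Its log2 fold change came to 0.059 (SE 0.054, limma adjusted p = 0.935, exact permutation p = 0.249, two-sided), and the 95% interval reached from 96.3% to 113% of the wild-type level. Without wild type 1 the difference was 0.024.

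**Figure D1:**
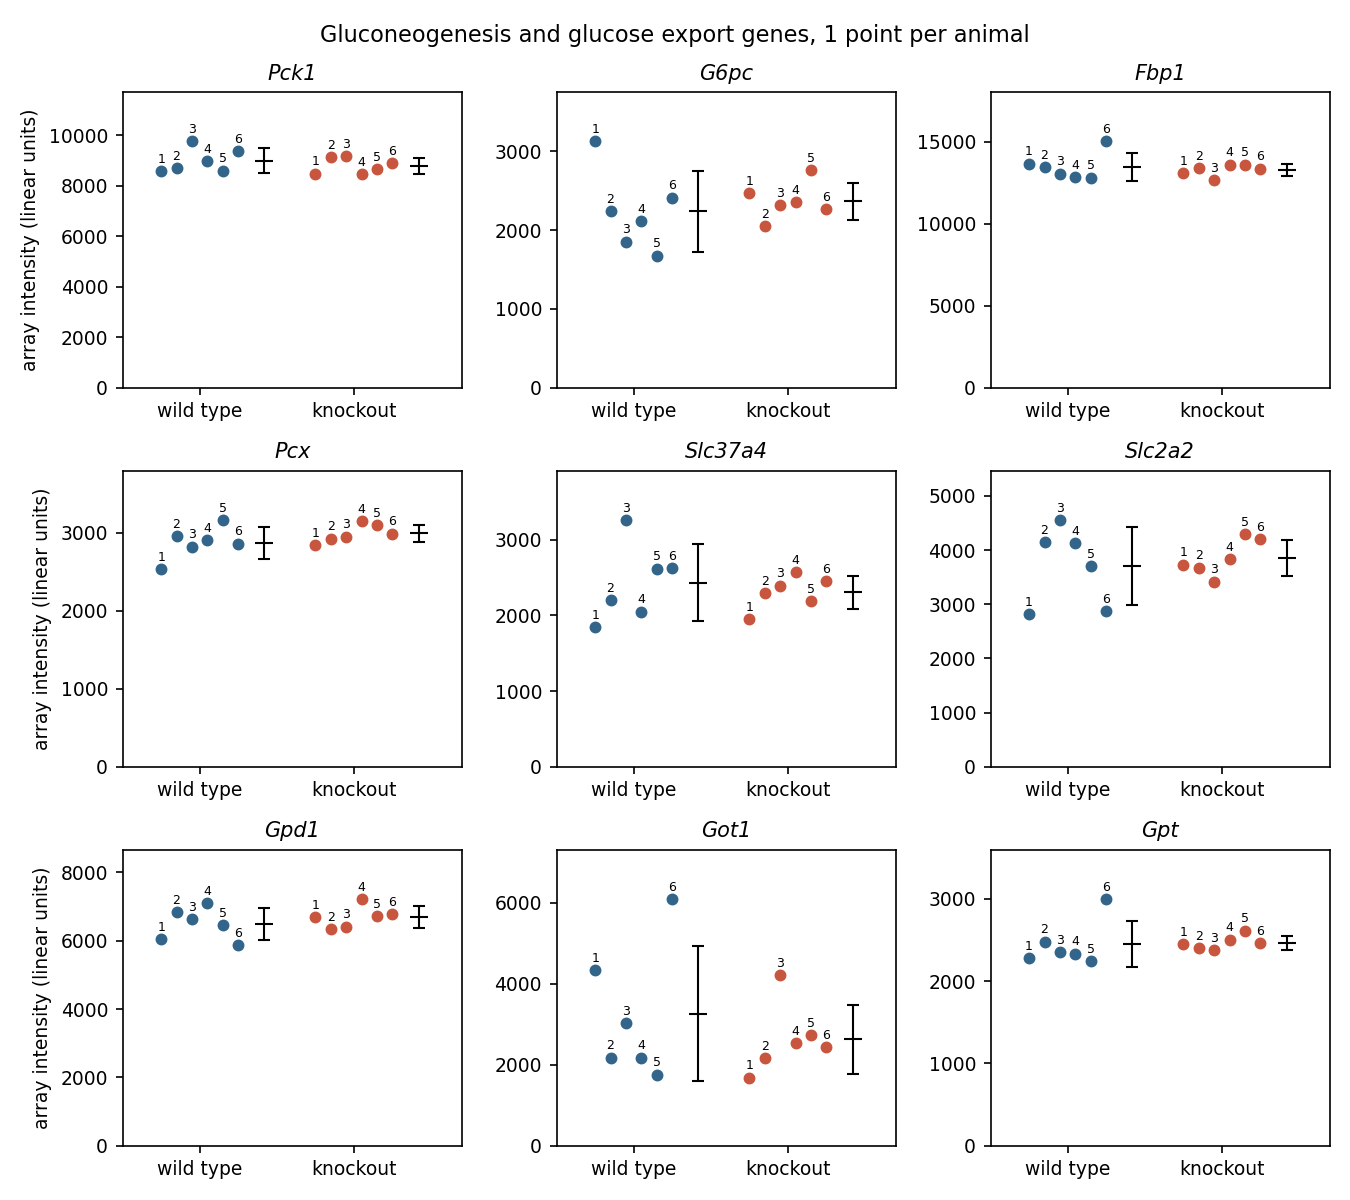
Array intensity in linear units on a vertical axis from 0, for the brightest probe set of each of the 9 genes. Each point is 1 animal with its number, blue for wild type and red for Sirt4 knockout, and the bar is the mean ± SD of 6 animals; the groups overlap in every panel, and the widest spread is that of Got1 in the wild type, from 1755 to 6088.

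The 2 genes of glucose export showed no difference between the genotypes that exceeded the spread between animals. Slc37a4 read 1841 at the lowest, 2411 at the median and 3257 at the highest in the wild type. In the knockout it read 1951, 2342 and 2574. Wild type 1 was the lowest animal and wild type 3 the highest. On the log2 scale the knockout differed by -0.055 (SE 0.11, limma adjusted p = 0.979, exact permutation p = 0.688, two-sided). It turned to 0.033 without wild type 3, to 0.077 with the title series as a term, and to 0.17 among the 7200s.

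Slc2a2 read 2815 at the lowest, 3915 at the median and 4550 at the highest in the wild type. In the knockout it read 3417, 3780 and 4289. Wild types 1 and 6, at 2815 and 2872, lay below all other animals, and wild type 3 above them. Here the log2 difference was 0.078 (SE 0.11, limma adjusted p = 0.964), with a 95% interval from 90.1% to 124% of the wild-type level. It was 0.0046 without wild type 1, 0.01 without wild type 6, 0.047 without knockout 5, 0.14 without wild type 3 and -0.0003 without wild types 5 and 6.

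Among the genes of substrate entry, Gpd1, which links glycerol 3-phosphate to the triose phosphates, showed a difference smaller than its spread between animals. Its brightest probe set, 1439396_x_at, read 5877 to 7105 in the wild type, with a median of 6545, and 6343 to 7215 in the knockout, with a median of 6709. For it the knockout differed by 0.046 in log2 (SE 0.055, limma adjusted p = 0.956). This became 0.018 without wild type 6, 0.024 without knockout 4, 0.026 without wild type 1, 0.072 without wild type 4 and 0.0033 without the 3 arrays titled -2. The probe sets 1448249_at and 1416204_at correlated with it at 0.672 and 0.811 over the 12 animals and gave 0.038 and -0.0052. The dim probe set, 1456732_at, read 9 to 12.35 in the wild type and 4.4 to 21.22 in the knockout, and the knockout mean stood -0.063 from the wild type in log2 (SE 0.062).

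Got1, whose product interconverts aspartate and oxaloacetate in the cytosol, differed most between animals. It read 1755 at the lowest, 2602 at the median and 6088 at the highest in the wild type. In the knockout it read 1680, 2491 and 4208. Wild types 6 and 1 and knockout 3 were the high animals, at 6088, 4342 and 4208, and the other 9 lay between 1680 and 3028. The means were 3260.1 ± 1664 (SD, n = 6) and 2625 ± 857 (SD, n = 6). These are means of linear intensities, whereas the log2 fold change was taken between the means of the log2 values. It was -0.22 (SE 0.26, limma adjusted p = 0.951, exact permutation p = 0.507, two-sided). Its 95% interval ran from 58.4% to 125% of the wild-type level. The difference moved with single animals. It was -0.019 without wild type 6, -0.11 without knockout 1, -0.12 without wild type 1, -0.37 without wild type 5 and -0.37 without knockout 3. It was -0.021 without the 3 knockout arrays titled -2.

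Gpt, which turns alanine into pyruvate, read 2243 to 2995 in the wild type, with a median of 2342, and 2378 to 2614 in the knockout, with a median of 2457. Wild type 6 was again the highest animal. In log2 the knockout stood 0.019 above the wild type (SE 0.064, limma adjusted p = 0.989), and it was -0.0067 after quantile normalization of the arrays, 0.077 without wild type 6 and -0.0044 without wild type 5. The second probe set, 1453216_at, read 161 ± 28.3 (SD, n = 6) in the wild type and 172 ± 20.3 (SD, n = 6) in the knockout, and correlated with the first at 0.623.

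**Figure D2:**
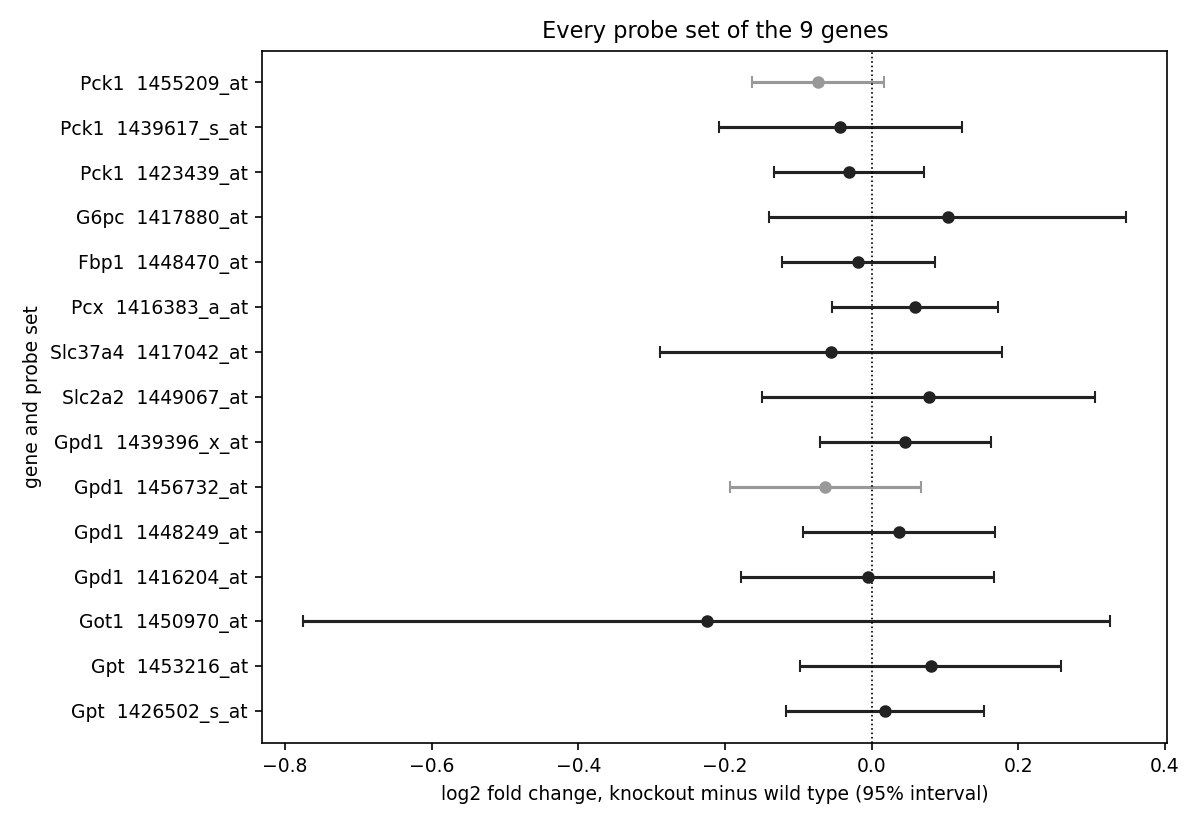
Log2 fold change, knockout minus wild type on log2(intensity + 50), for each of the 15 probe sets of the 9 genes, with the 95% interval from limma. Grey marks the 2 probe sets below the array median on all 12 arrays; every interval crosses 0, and that of Got1 is the widest, from -0.77 to 0.33.

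For 6 of the 9 genes (Pck1, Fbp1, Pcx, Slc37a4, Gpd1 and Gpt) the 95% interval of the brightest probe set lay within 20% of no change. For G6pc, Slc2a2 and Got1 it did not. These intervals are from the fit without the title series as a term. With that term the Slc37a4 log2 difference turned from -0.055 to 0.077. In the authors' deposited table the fold changes of these 9 probe sets ran from -1.24 for Got1 to 1.06 for G6pc, where a negative sign marks a lower knockout level. The authors' deposited table gave 0 of the 15 probe sets a p under 0.05.

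The spread between animals, unlike the mean, was smaller in the knockout for each of the 9 genes. The SD of log2(intensity + 50) was smaller among the 6 knockout animals than among the 6 wild-type animals for 9 of 9 brightest probe sets, where this held for 70.7% of the 2778 probe sets with a mean intensity above 1000. The ratio of the knockout SD to the wild-type SD ran from 0.314 for Gpt to 0.685 for Pck1, with a median of 0.475, beside 0.764 over those 2778 probe sets. For G6pc the SD was 0.31 in the wild type and 0.14 in the knockout, and for Slc2a2 it was 0.29 and 0.12. Of all 15 probe sets, 12 had the smaller SD in the knockout. The other 3 were Gpd1 1416204_at, with a ratio of 1.04, and the dim probe sets of Pck1 and Gpd1, with 2.10 and 5.31.

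This pattern was seen in the data and then described, and no test was run on it. It remained at 9 of 9 with any 1 animal left out, without wild types 5 and 6, under both other scalings of the arrays, and around the mean of each title series. In these settings the share over the 2778 bright probe sets ran from 61.7% to 72.8%. The size moved, and without wild types 5 and 6 the median ratio of the 9 genes was 0.623 and the highest 0.974. The highest ratio was 0.959 without wild type 3 and 0.965 without wild type 6. Without wild types 1 and 6 together the smaller SD in the knockout held for 5 of 9, with a median ratio of 0.819. With both left out, it held for 63.2% of the 2778 bright probe sets, with a median ratio of 0.818. The 9 genes were then near the level of the bright probe sets. Of the 18 highest and lowest values of the 9 genes, 14 were from wild-type animals, where the share over the 2778 bright probe sets was 61.4%. Wild type 3 was highest for Pck1, Slc37a4 and Slc2a2, wild type 6 for Fbp1, Got1 and Gpt, and wild type 1 was lowest for Pcx, Slc37a4 and Slc2a2. Acute phase genes encode secreted liver proteins that rise in inflammation. Their mean log2 deviation was highest in wild types 5 and 6 and knockout 4, at 1.42, 1.16 and 0.85. The part of these genes in the spread was not tested, as no setting left these animals out together.

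**Figure D3:**
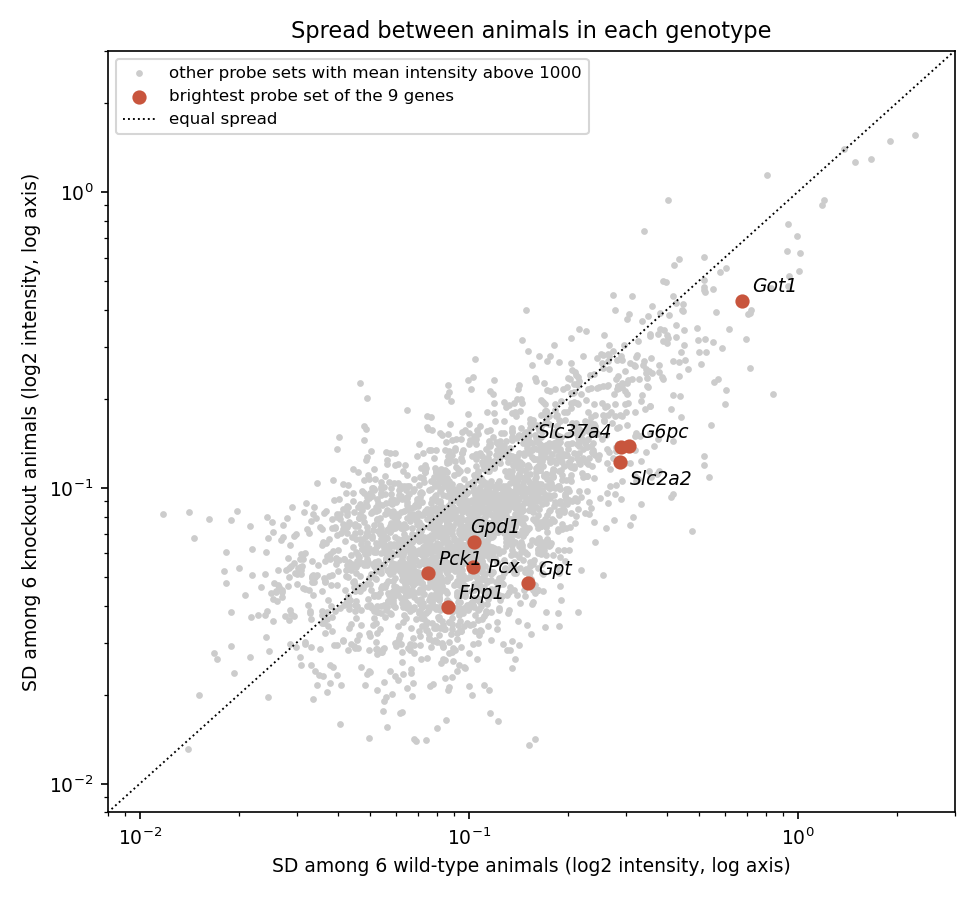
SD of log2(intensity + 50) among 6 knockout animals against that among 6 wild-type animals, both on log axes, for 2778 probe sets with a mean intensity above 1000 in grey and the brightest probe set of the 9 genes in red. All 9 red points lie below the dotted line of equal spread.

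**Figure D4:**
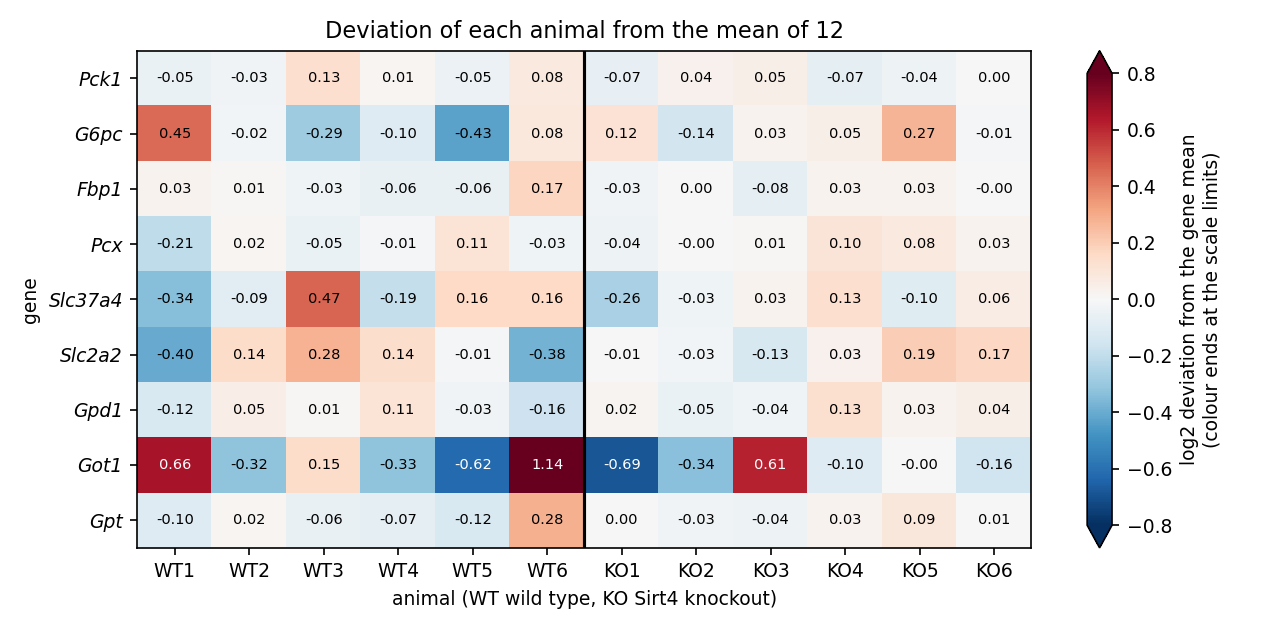
Deviation of each animal's log2(intensity + 50) from the mean of the 12 animals, for the brightest probe set of the 9 genes, printed in each cell and coloured from blue (low) to red (high). The cells of wild types 1 and 6 hold many of the extremes, such as 1.14 for Got1 in wild type 6 and -0.40 for Slc2a2 in wild type 1.

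No pair of the 9 genes had a correlation over the 12 animals that passed the correction. Of 36 pairs, 0 had an adjusted Pearson p under 0.05 (permutation test, 100000 resamples, Benjamini-Hochberg over the 36), and 7 had an unadjusted p under 0.05. The sign of r differed between the genotypes for 17 pairs.

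Fbp1 and Gpt had the highest correlation, with r = 0.845 (permutation p = 0.00401, adjusted 0.0722) and rho = 0.608 (permutation p = 0.0399, adjusted 0.479). It was 0.554 without knockout 3 and wild type 6, 0.901 within the wild type, 0.715 within the knockout and 0.215 among the 7 animals of the 7200s. Slc2a2 and Gpd1 followed with r = 0.789 (permutation p = 0.00259, adjusted 0.0722) and rho = 0.699 (permutation p = 0.0142, adjusted 0.479). That relation fell to 0.416 without wild types 1 and 6, and was 0.881 within the wild type, 0.455 within the knockout and 0.759 among the 7200s. For each pair here and below, the 2 animals left out were those farthest from the median of the first-named gene. Leaving out such animals narrows the range, which by itself tends to lower r, so these falls decide nothing about either relation. Neither relation passed the correction.

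G6pc and Slc37a4, the catalytic subunit and the transporter of 1 enzyme system, ran in opposite directions, with r = -0.649 (permutation p = 0.0232, adjusted 0.177) and rho = -0.517 (permutation p = 0.0888, adjusted 0.62). The value was -0.505 without wild types 1 and 5, -0.695 within the wild type, -0.39 within the knockout and -0.658 among the 7200s. Pck1 and G6pc, the pair with known shared hormonal control, gave r = -0.37 (permutation p = 0.237, adjusted 0.427) and rho = -0.42 (permutation p = 0.177, adjusted 0.629). The value was -0.265 without wild types 3 and 6, -0.257 within the wild type, -0.592 within the knockout and -0.514 among the 7200s. With 5 animals in the 7500s, no value was computed there.

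Among 5902 genes with a mean intensity above 200, those whose values over the 12 animals were most like Pck1 were Rcl1 (r = 0.905), Dek (0.836), Cps1 (0.799), Slc25a32 (0.791) and Depp1 (0.789). Cps1 is the first enzyme of the urea cycle, and Depp1 is a known target of FOXO factors. Those most opposite were 0610009B22Rik (-0.849), Pxdc1 (-0.805) and Pnkd (-0.799). For G6pc the most alike were Tns3 (0.875), Mgat1 (0.848), Tyw5 (0.843), Ptdss2 (0.841) and Pdcl3 (0.838), and the most opposite were Sec14l4 (-0.9), Psmb6 (-0.879) and Rab4a (-0.848). No gene stood among the most alike of both, an outcome already fixed by the r of -0.37 between Pck1 and G6pc. These are the extremes of 5902 values over 12 points that share the same arrays, and they are given as a description.

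Got1 was added to this comparison after its values were seen. The most alike were Hgd (0.966), Fads6 (0.923), Cyp17a1 (0.919), Agxt (0.914) and As3mt (0.913), and the most opposite were Ces2e (-0.903), Adh4 (-0.899) and Dus1l (-0.898). Hgd and Agxt are enzymes of amino acid breakdown, of tyrosine and of glyoxylate and alanine. Cyp17a1, a steroid-synthesising P450, ran from 70.6 to 1784 over the 12 animals, and Agxt from 2375 to 4396.

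The other genes of the pathway were taken as 4 lists with 66 genes, of which 63 could be matched to 1 probe set or more, and 0 of the 63 passed an adjusted p of 0.05 in limma. The lowest adjusted p was 0.821. At an unadjusted limma p under 0.05, 4 of the 63 lay higher and 1 lower in the knockout. Of 18023 genes, 6.54% fell under it, 3.25% higher and 3.29% lower, a share near that of the 63.

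The list of other gluconeogenic genes and isoforms held 21 genes, with 13 above 0 (50.4% of all genes were) and 8 below, a median log2 fold change of 0.022, and 3 higher and 1 lower at the unadjusted threshold. Sdsl, which resembles the serine dehydratase that turns serine into pyruvate, had the smallest p, at 305 ± 116 (SD, n = 6) in the wild type and 197 ± 36.2 (SD, n = 6) in the knockout. The knockout was lower by a log2 difference of -0.48 (SE 0.16, limma adjusted p = 0.826), and the groups overlapped, with wild type 6 highest at 519.7. Slc25a10, the mitochondrial dicarboxylate carrier, gave a log2 fold change of 0.14 (SE 0.059, limma adjusted p = 0.837). Aqp9, the glycerol channel of the hepatocyte, gave 0.12 (SE 0.049, limma adjusted p = 0.837), from 4967 ± 177 (SD, n = 6) to 5401 ± 312 (SD, n = 6). Slc25a13, the mitochondrial aspartate and glutamate carrier, gave 0.12 (SE 0.053, limma adjusted p = 0.838).

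Of the 9 reversible enzymes shared with glycolysis, 6 were measured (Pgam1, Pgk1 and Gapdh were not matched to a probe set of 1 gene), with 5 above 0, 1 below, a median of 0.011 and 0 under an unadjusted p of 0.05. Tpi1 gave a log2 fold change of -0.089, Eno3 0.077, Gpi1 0.023 and Aldoa 0.014, with limma adjusted p-values of 0.874 to 0.993. The Eno3 probe set was dim, with means of 53.7 in the wild type and 59.5 in the knockout. At such levels the offset of 50 shrinks a log2 difference.

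The opposing glycolytic list held 10 genes, with 6 above 0, 4 below, a median of 0.0081 and 0 under an unadjusted p of 0.05. Pfkl, the liver phosphofructokinase, gave -0.12 and Pfkp -0.10, and Pfkfb3, which makes the phosphofructokinase activator fructose 2,6-bisphosphate, gave 0.36 (SE 0.27), all with limma adjusted p-values of 0.882 to 0.912. Pfkp and Pfkfb3 were dim, with wild-type means of 73.7 and 72.2 and knockout means of 65.9 and 108.4.

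The list of transcriptional regulators held 26 genes, with 17 above 0, 9 below, a median of 0.017, and 1 higher and 0 lower at the unadjusted threshold. That gene was Ppara, the fatty acid receptor of the fasting response, at 998 ± 130.2 (SD, n = 6) in the wild type and 1199 ± 94.5 (SD, n = 6) in the knockout. The log2 difference was 0.26 (SE 0.081, limma adjusted p = 0.821). Its wild-type values ran from 767 to 1128 and its knockout values from 1049 to 1325, so the groups overlapped. Cebpa, a liver transcription factor, gave 0.083, Insr, the insulin receptor, 0.078, and Trib3, an inhibitor of AKT signalling, -0.23, with limma adjusted p-values of 0.901 to 0.902.

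**Figure D5:**
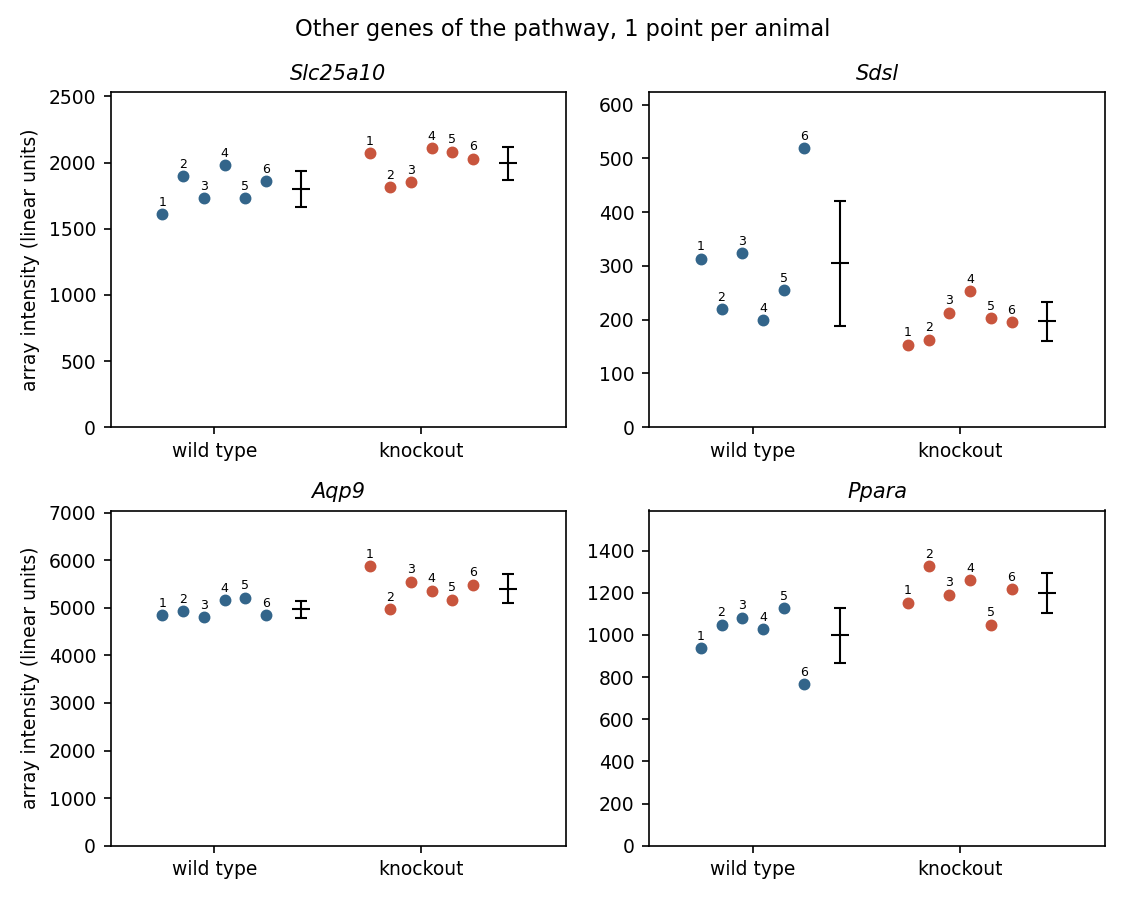
Array intensity in linear units on vertical axes from 0, for Slc25a10, Sdsl, Aqp9 and Ppara, with 1 numbered point for each animal and the mean ± SD of 6 animals. The knockout values overlap those of the wild type in each panel; the 4 were picked for drawing after their values were seen.

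Gluconeogenic enzymes are known to be denser around the portal vein, so markers of both lobule zones were read in the same livers. Of 12 pericentral markers, 12 had a log2 fold change above 0, with a median of 0.17, and 4 had an unadjusted limma p under 0.05, all higher, where 50.4% of all genes were above 0 and 3.25% were higher by that rule. None of the 12 passed the adjusted threshold. Of 10 periportal markers measured, 8 were below 0, with a median of -0.063, and 1 was higher and 1 lower at the unadjusted threshold. The summed pericentral intensities were 55097 to 63411 in the wild type and 59289 to 65659 in the knockout, and the periportal ones 71674 to 85963 and 73338 to 78245, so both overlapped.

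Kupffer and macrophage markers were below 0 for 15 of 16 genes, with a median of -0.32, where 50.4% of all genes were above 0. An unadjusted limma p under 0.05 was found for 11, all lower, where 3.29% of all genes were lower by that rule. None passed the adjusted threshold. Their sums were 8356 to 12503 in the wild type and 6573 to 9760 in the knockout, and no marker was at 0. B cell markers were below 0 for 7 of 7, acute phase genes for 11 of 12, neutrophil markers for 5 of 6, and stellate and fibroblast markers for 7 of 10, while endothelial markers were above 0 for 7 of 8 and cholangiocyte markers for 3 of 6. Hepatocyte markers were above 0 for 5 of 10. At an unadjusted limma p under 0.05, 3 B cell, 1 acute phase, 1 neutrophil and 2 stellate and fibroblast markers were lower. By the same rule 1 stellate and fibroblast marker and 1 endothelial marker were higher, where 3.25% of all genes were. None of these passed the adjusted threshold. The part of these cell types in the values of the 9 genes was not tested.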

How the data were processed

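Total liver RNA from 12 mice was labelled with biotin from 6 µg and hybridized on 1 array per animal, per the labels' protocols. The deposited intensities are linear values from 0 to 19808.27, a range that shows they are not log2 values, with 689 cells at 0. RMA is named, with no version, in the submitters' processing notes. RMA as usually run gives log2 values and no linear value of 0, so the steps behind these intensities are not settled, and no source used here states others. The authors' deposited table repeats all 540444 intensities and adds a signed fold change, unadjusted p-values and a t statistic (a score) whose formulas are not given.

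Probe sets were named by their own gene number (36239) or, failing that, by accession (1067); 1285 with several genes and 6446 with none stayed unnamed but were tested. A further Fbp1 probe set, found only by accession, was left out by that rule. Symbols and promoters are from RefSeq.

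Differences were tested with limma 3.58.1 in R 4.3.3 on log2(intensity + 50), the deposited values being otherwise unchanged, with Benjamini-Hochberg adjustment over all 45037 probe sets and a threshold of 0.05. The fit was tested on simulated data with independent noise and equal spread in both genotypes, which checks the calculation only. Exact two-sided permutation tests used all 924 arrangements of the animals and are not adjusted over the 15 probe sets. Lists, levels by gene and correlations used the probe set with the highest mean of each gene. Precision is limited by how few arrays there are, and the median SE of a log2 fold change was 0.063.

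The genes, lists and tests were chosen with earlier results of these data known. Named genes are the 9 with all probe sets, Sirt4, the 4 of each other pathway list with the smallest unadjusted p, and the 5 most and 3 least like Pck1 and G6pc; a gene of the opposing glycolytic list that this rule names is not reported here. Alternatives were other offsets and scalings, a filter on dim probe sets, another variance model, 1 probe set per gene, the title series, and leaving out animals. No source used here explains the numbers and the ending "-2" in array titles.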

Additional observations from a re-analysis of the deposited data

Results flagged for a closer look

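A pair of values stood far from the others of their group, by a rule under which chance marks about 1 group in 20. They are 2 of 30 groups examined. The first was the Gpt probe set 1426502_s_at, for which wild type 6 read 2994.87 while the other wild-type animals read 2243 to 2480. The second was the dim Gpd1 probe set 1456732_at, for which knockout 4 read 21.22 while the other knockout animals read 4.4 to 7.67. Both were kept in all values given above unless an animal is named as left out.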

How the results depend on the processing

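No paired analysis was possible because replicates are numbered by accession order, which ties no wild-type animal to a knockout animal. None of the probe sets of the 9 genes was called under any alternative that tested it, which was all 15 in 22 of 24 refits, 13 among the brighter probe sets and 9 with 1 probe set per gene, and the lowest adjusted p was 0.829 (limma). For the brightest probe sets, 21 settings could move the fold change, and the sign was kept in 177 of 189 values and turned in 12. It turned for Gpt after quantile normalization (-0.0067), for G6pc (-0.032) and Slc37a4 (0.077) with the title series as a term, and for Pck1 (0.022), G6pc (-0.15) and Slc37a4 (0.17) among the 7200s alone, where 2 wild-type animals remain. Without wild types 5 and 6 it turned for Fbp1 (0.0046), Slc37a4 (0.01) and Slc2a2 (-0.0003). The Gpd1 probe sets 1456732_at (-0.063) and 1416204_at (-0.0052) had the opposite sign to the brightest. Leaving out 1 animal at a time gave -0.0044 to 0.077 for Gpt (turned without wild type 5), -0.032 to 0.014 for Fbp1 (without wild type 6) and -0.13 to 0.033 for Slc37a4 (without wild type 3). No sign turned for the other 6, though the size moved for each: -0.044 to -0.0075 for Pck1, 0.028 to 0.20 for G6pc, 0.024 to 0.087 for Pcx, 0.0046 to 0.14 for Slc2a2, 0.018 to 0.072 for Gpd1 and -0.37 to -0.019 for Got1. The cause was not tested. The count of all probe sets called, 0, became 1 (Sirt4) with quantile normalization, without the 3 knockout arrays whose titles end in -2, with a trended robust variance, and with 1 probe set per gene. The adjusted p of Sirt4 was 0.292 with an offset of 16, 0.402 with a floor of 10, 0.877 with the title series as a term and 0.967 among the 7200s. Leaving out 1 animal at a time gave 0 to 1, the 1 being an unnamed probe set without wild type 1. The authors' p-values, adjusted over all probe sets, called 0, from 765 under 0.05 unadjusted. The count of 9 genes with a smaller SD in the knockout, whose alternatives were chosen after seeing the data, fell to 5 without wild types 1 and 6 and was 9 in each of the other 17. The share over the bright probe sets was 63.2% without wild types 1 and 6, beside 70.7% with all animals.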
